A study of Mus musculus with 8 samples.

Results

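The D-type cyclins and the 2 kinases they activate were followed in pro-B cells without miR-15a, miR-15b and miR-16. The 5 genes are *Ccnd3*, *Ccnd2*, *Ccnd1*, *Cdk4* and *Cdk6*, chosen by name, and they make up 5 of the 24746 rows of the count table. RNA was sequenced from FACS-sorted bone marrow pro-B cells of 4 DKO mice (miR-15a/bfl/fl Vav-Cre) and of their controls, 4 mice with the genotype miR-15a/b+/+ Vav-Cre, with 1 library per mouse. All mice were C57BL/6, 10 to 12 weeks old, and carried the Vav-Cre transgene, so that recombination takes place in hematopoietic stem cells and every blood lineage of a DKO mouse lacks both microRNA clusters, miR-15a with miR-16-1 and miR-15b with miR-16-2. The floxed alleles came from embryonic stem cells of a mixed strain background and were backcrossed. According to the paper's gating, pro-B cells are the c-KIT+ fraction of AA4.1+ IgM- bone marrow B cells.

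D-type cyclins are made in response to growth signals and bind Cdk4 or Cdk6 in the G1 phase of the cell cycle. The active kinase phosphorylates the retinoblastoma protein and its relatives, which releases E2F transcription factors and lets the cell enter S phase. In B cell progenitors these signals come from the interleukin-7 receptor and later from the pre-B cell receptor, and in mice cyclin D3 is known to be needed for the expansion of pre-B cells. MicroRNAs of the miR-15 family bind cell cycle mRNAs through a shared seed and lower their abundance or translation.

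The mature sequences of the deleted microRNAs are shown because their seed defines the matches searched in the 5 genes; the capitals mark the seed, bases 2 to 8, and the sequences are those of RefSeq for GRCm38.p6.
miR-15a-5p: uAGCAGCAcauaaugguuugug
miR-15b-5p: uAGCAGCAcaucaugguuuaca
miR-16-5p: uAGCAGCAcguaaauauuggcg
The first is encoded on chromosome 14 and the second on chromosome 3, and miR-16-5p has a copy beside each. In all, 10 mature mouse microRNAs of that table hold this seed, among them miR-195a-5p and miR-497a-5p of chromosome 11, which were not deleted. The count table holds the precursor genes, and *Mir16-1* had 0 reads in every DKO library, against 5, 1, 2 and 4 reads in control libraries 1 to 4. *Mir15a* and *Mir16-2* had 0 reads in DKO libraries and 1 read each over all control libraries, *Mir15b* had 0 in both groups, and such counts are too low for a test.

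The longest annotated 3′ UTR of each gene (GENCODE M21, GRCm38) was searched for the 8mer TGCTGCTA, for the 7mer-m8 TGCTGCT and for the 7mer-A1 GCTGCTA on the mRNA strand, and a 7mer inside an 8mer was counted once. *Ccnd3* had 1 7mer-m8 and 1 7mer-A1 in a 3′ UTR of 915 bases. *Ccnd2* had 1 8mer and 2 7mer-A1 matches in 5173 bases, *Ccnd1* had 1 7mer-m8 and 2 7mer-A1 matches in 2676 bases, and *Cdk6* had 1 8mer and 2 overlapping 7mer-m8 matches in 10217 bases. *Cdk4* had no match in 899 bases. Per kilobase of 3′ UTR, *Ccnd3* held 2.19 matches, *Ccnd1* 1.12, *Ccnd2* 0.58 and *Cdk6* 0.29. Among all 21010 genes with an annotated 3′ UTR, whose median length is 960 bases, 23.4% held at least 1 match and 4.05% an 8mer. The best match of each gene (8mer before 7mer-m8 before 7mer-A1), and the second of *Ccnd3*, are shown with the 20 bases before it, the match in capitals.
Ccnd3, 7mer-m8: ccatacactgttgctttgctTGCTGCTt
Ccnd3, 7mer-A1: tactgctttgtggcccaggaGCTGCTAc
Ccnd2, 8mer: agctgtaatgtttcacggtgTGCTGCTA
Ccnd1, 7mer-m8: gcctgttgtgcatgccaccaTGCTGCTg
Cdk6, 8mer: agaccccaagttgcacagggTGCTGCTA
The capitals lie at chr17:47599294-47599300 and chr17:47599470-47599476 in exon 7 of 7 of *Ccnd3* (plus strand), at chr6:127128541-127128548 in exon 5 of 5 of *Ccnd2* (minus strand), at chr7:144930395-144930401 in exon 5 of 5 of *Ccnd1* (minus strand) and at chr5:3524545-3524552 in exon 8 of 8 of *Cdk6* (plus strand). A match is a run of letters and no measurement of binding. When the shortest annotated 3′ UTRs were searched instead, only *Ccnd1*, which has a single one, kept its matches.

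Library totals were 38073065 to 43288133 counts in DKO and 38257907 to 41530921 counts in control mice. The 5 genes took 0.372, 0.371, 0.395 and 0.328% of all counts in DKO libraries 1 to 4, against 0.171, 0.191, 0.159 and 0.199% in control libraries 1 to 4. The summed level of 13 marker genes of pro-B cells was 34469 to 38035 CPM in DKO and 32522 to 36774 CPM in control libraries. CPM are counts scaled to library size, with TMM factors. A few of the 13 genes made up most of the summed level. Of these 13, *Kit*, which encodes the receptor used in the gate, was higher in DKO cells (41.5 against 17.9 CPM in control cells, adjusted p = 0.0081 from edgeR), and the other 12 did not pass the test. Of 12 macrophage and monocyte markers all had a lower mean in DKO cells and 1 passed, while their summed level overlapped, with 290 to 737 CPM in DKO and 415 to 1013 CPM in control libraries. In bulk RNA, fewer cells of a type and less RNA per cell cannot be told apart. *Xist*, a transcript of the inactive X chromosome, was at most 0.140 CPM (here without TMM factors) in DKO mice 3 and 4 and control mouse 1, and 71.1 to 97.1 CPM in the others. The part of *Kit*, of macrophage RNA and of *Xist* in the results below was not tested beyond the values given there.

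*Ccnd3* was the only one of the 5 genes that passed the test between DKO and control pro-B cells (edgeR's quasi-likelihood test, adjusted over 12714 genes, threshold 0.05). Its transcripts were 3.15-fold as abundant in DKO cells, whereas *Ccnd2*, *Ccnd1*, *Cdk4* and *Cdk6* overlapped between the groups. Of all genes tested, 4.58% passed in either direction, with 2.65% higher and 1.93% lower in DKO cells. The study put *Ccnd3* on its list of putative miR-15 targets because it was higher in these mice and has predicted binding sites, so its direction here is not independent evidence. The paper also states that earlier in vitro work of its authors described the targeting of cyclin D3 as indirect.

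*Ccnd3* encodes cyclin D3 and spans chr17:47505051-47599688 on the plus strand (GRCm38). Its level was 2851, 2768, 3021 and 2391 CPM in DKO libraries 1 to 4, against 899, 852, 779 and 966 CPM in control libraries 1 to 4. Every DKO library was thus above every control library, and the lowest DKO value was 2.47-fold the highest control value. All DKO libraries lay above all control libraries for 7.63% of the genes tested, and below them for 6.21%. The means were 2758 ± 266 CPM in DKO and 874 ± 78.9 CPM in control cells (SD, n = 4 each), a log2 fold change of 1.66 with a standard error of 0.11, a 95% interval of 1.42 to 1.89 and an adjusted p of 2.0e-05 from edgeR. Within a group the mice differed little: the highest library was 1.26-fold the lowest among DKO and 1.24-fold among control mice.

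The change of *Ccnd3* was large for so abundant a transcript. It ranked 29th in mean CPM in DKO cells and 124th in control cells among the 12714 genes, and no gene gained more CPM. Of the 337 genes higher in DKO cells, 46 had a larger log2 fold change, but none of the 71 with at least 100 CPM in control cells did. Its log2 fold change was 1.70 in the libraries with *Xist* above 10 CPM (2 DKO and 3 control, adjusted p = 0.00038 from edgeR), and the DKO libraries without *Xist* held the highest and the lowest DKO value. The last exon of *Ccnd3* shares 358 bases with an exon of *Bysl* on the opposite strand, including the 7mer-A1 match, and whether reads were counted by strand is not given in the sources. *Bysl*, a ribosome biogenesis gene, was at 28.2 ± 0.827 CPM in DKO and 25.0 ± 3.06 CPM in control cells (SD, n = 4 each), a level far below that of *Ccnd3*, and did not pass the test (log2 fold change 0.18, adjusted p = 0.385 from edgeR).

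**Figure D1:**
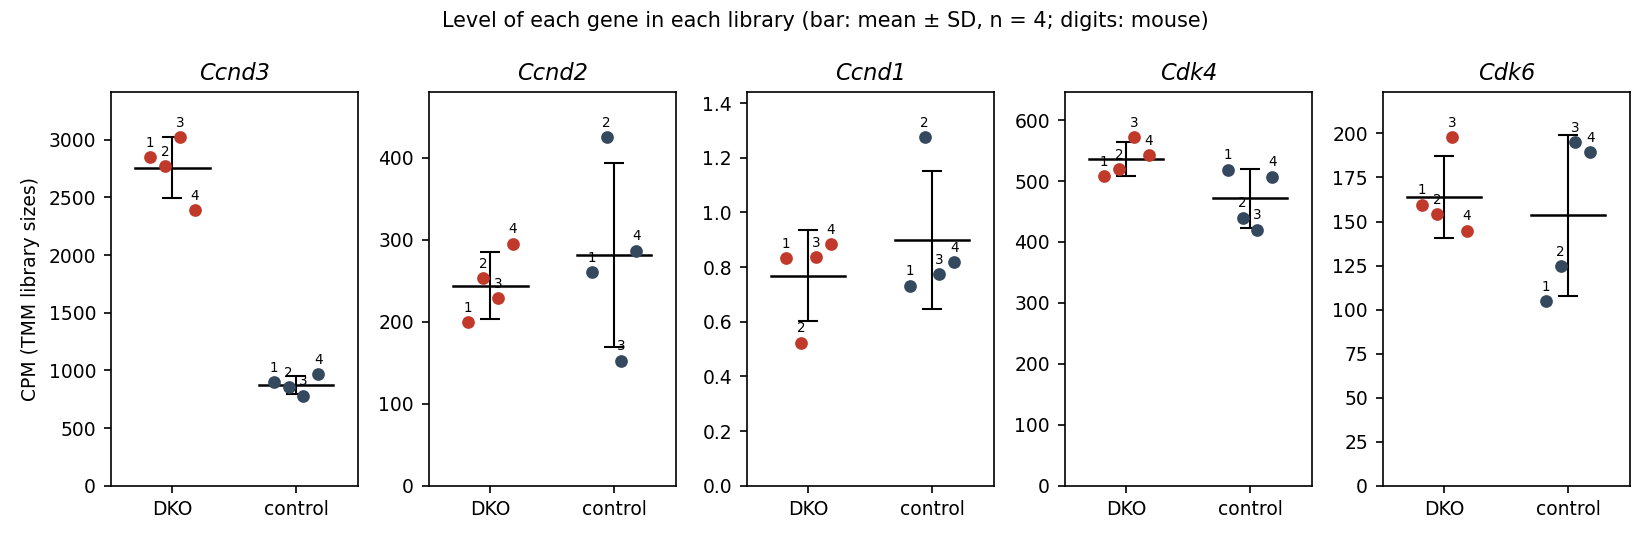
Level of each gene in CPM (linear axes that start at 0, with a scale of their own per gene) in each DKO and control library. Points are libraries with the number of the mouse, horizontal bars the mean and error bars the SD of 4 mice. *Ccnd3* lies at 2391 to 3021 CPM in DKO and 779 to 966 CPM in control libraries, and the other 4 genes overlap between the groups.

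*Ccnd2* encodes cyclin D2 and lies at chr6:127125709-127151048 on the minus strand. It had 199.6, 253, 229 and 295 CPM in DKO libraries 1 to 4, against 260.4, 425, 152 and 287 CPM in control libraries 1 to 4. The control libraries enclosed the DKO libraries, with control mouse 2 highest and control mouse 3 lowest of all 8. The means were 244 ± 40.4 CPM in DKO and 281 ± 112 CPM in control cells (SD, n = 4 each), with a log2 fold change of -0.20 (95% interval -0.75 to 0.34, adjusted p = 0.693 from edgeR). The interval spans from 0.595-fold to 1.27-fold, so changes of either sign within it remain compatible with these data. The estimate turned to 0.06 without control mouse 2 and to -0.41 without control mouse 3, and neither passed (adjusted p = 0.903 and 0.257 from edgeR). The interval of *Ccnd2*, which like *Cdk6* holds an 8mer in its longest annotated 3′ UTR, lies below that of *Ccnd3*. Which 3′ UTRs these cells use was not tested, nor was the part of the matches in these levels.

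*Ccnd1* encodes cyclin D1 and lies at chr7:144929931-144939925 on the minus strand. It was nearly absent, with 36, 20, 35 and 33 reads in DKO libraries 1 to 4 and 28, 52, 33 and 32 reads in control libraries 1 to 4. In CPM these are 0.832, 0.523, 0.835 and 0.884 in DKO libraries, against 0.731, 1.27, 0.774 and 0.818 in control libraries. The groups overlapped, with control mouse 2 highest and DKO mouse 2 lowest. The log2 fold change was -0.23, with a 95% interval of -1.07 to 0.62 (adjusted p = 0.789 from edgeR). At these counts, changes from 0.476-fold to 1.54-fold remain compatible with the data. The last exon of *Ccnd1* shares 818 bases with *Oraov1* on the opposite strand, which was at 26 ± 2.84 CPM in DKO and 24.1 ± 3.32 CPM in control cells (SD, n = 4 each), so that reads in that stretch could not be assigned to one gene without strand.

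*Cdk4*, the kinase gene at chr10:127063535-127067288 on the plus strand, had 508, 519.9, 572 and 542 CPM in DKO libraries 1 to 4, against 519.0, 439.8, 420.4 and 507 CPM in control libraries 1 to 4. The groups overlapped only through DKO mouse 1, which lay below control mouse 1. The means were 536 ± 28 CPM in DKO and 471 ± 48.7 CPM in control cells (SD, n = 4 each), with a log2 fold change of 0.18 (95% interval -0.02 to 0.39, adjusted p = 0.307 from edgeR). It was the most stable of the 5 genes among DKO mice, with a coefficient of variation of 5.22%.

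*Cdk6*, the second kinase gene, spans chr5:3343893-3531005 on the plus strand. It had 159.6, 154, 198 and 145 CPM in DKO libraries 1 to 4, against 105, 125, 195 and 189 CPM in control libraries 1 to 4. The control mice fell into a lower and a higher pair, and the DKO libraries lay between them save for DKO mouse 3, which was the highest. The means were 164 ± 23.3 CPM in DKO and 153 ± 45.6 CPM in control cells (SD, n = 4 each), with a log2 fold change of 0.10 (95% interval -0.32 to 0.52, adjusted p = 0.823 from edgeR). The direction did not hold. It turned to -0.11 in the libraries with *Xist* above 10 CPM, to -0.05 without control mouse 1 and to -0.01 without DKO mouse 3, with adjusted p of 0.780, 0.883 and 0.992 from edgeR.

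**Figure D2:**
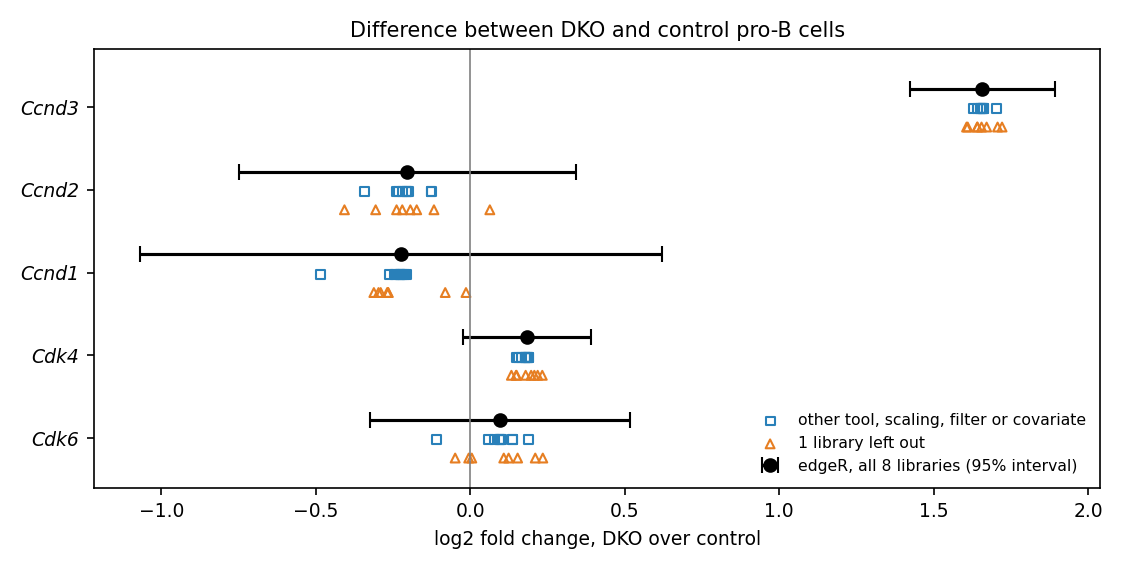
Log2 fold change of DKO over control for each gene. Black points with bars are the estimates and 95% intervals of edgeR over all 8 libraries, open squares other tools, scalings, filters and covariates, and open triangles the fits with 1 library left out. *Ccnd3* stays between 1.61 and 1.72 in all of them, while the intervals of the other 4 genes cover 0.

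Divided by exon length, the transcripts can be set against each other. In DKO cells *Ccnd3* led with 1220.3 ± 118 CPM per kb of exon, ahead of *Cdk4* (377 ± 19.7), *Ccnd2* (42.3 ± 7.0), *Cdk6* (14.2 ± 2.03) and *Ccnd1* (0.202 ± 0.0435, SD, n = 4). In control cells the order was the same, with *Ccnd3* at 387 ± 34.9 CPM per kb, *Cdk4* at 332 ± 34.3, *Ccnd2* at 48.7 ± 19.4, *Cdk6* at 13.3 ± 3.96 and *Ccnd1* at 0.237 ± 0.0666 (SD, n = 4). All neighbours in this order were apart in DKO cells, where the mean of *Ccnd3* was 3.24-fold that of *Cdk4*. In control cells *Ccnd3* and *Cdk4* overlapped, with 345 to 427 and 296 to 365 CPM per kb, although *Ccnd3* was above *Cdk4* in each of the 4 libraries. The exon lengths cover all annotated exons of a gene, 2.26 kb for *Ccnd3*, 1.42 kb for *Cdk4*, 5.77 kb for *Ccnd2*, 11.5 kb for *Cdk6* and 3.8 kb for *Ccnd1*, so genes with long 3′ UTRs that are used in part appear lower on this scale.

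**Figure D3:**
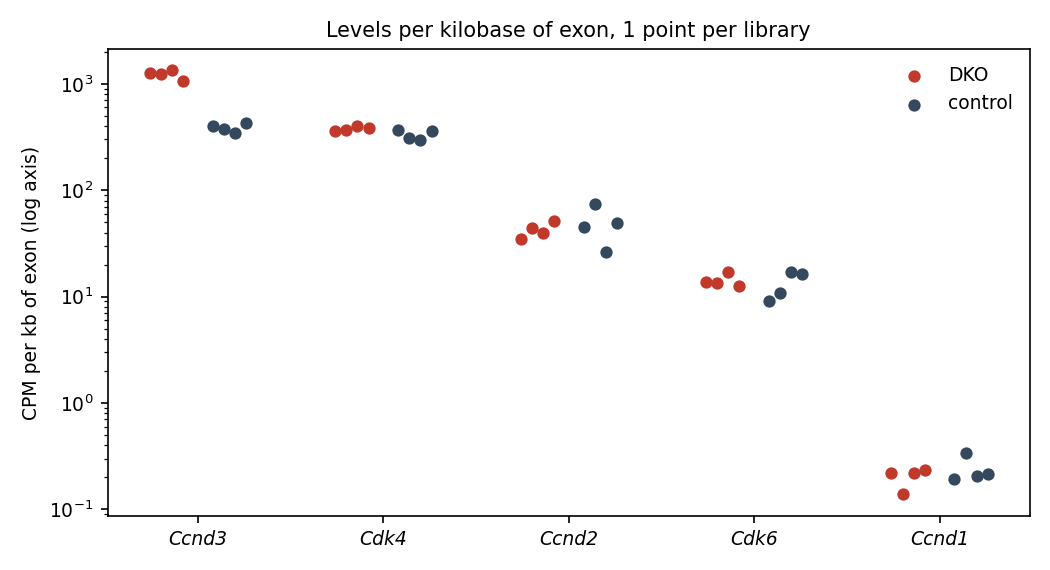
Levels in CPM per kb of exon on a logarithmic axis, 1 point per library, with DKO libraries left of control libraries for each gene. *Ccnd3* and *Cdk4* sit together at 296 to 427 CPM per kb in control libraries and apart in DKO libraries, and *Ccnd1* lies below 0.4 in all.

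The share of *Ccnd3* in the summed level of the 3 cyclins does not depend on the scaling between libraries. Per kb of exon it was 97.3, 96.5, 97.1 and 95.4% in DKO libraries 1 to 4, against 89.8, 83.6, 92.8 and 89.5% in control libraries 1 to 4. The groups did not overlap, and the means were 96.6 ± 0.872% in DKO and 88.9 ± 3.86% in control cells (SD, n = 4 each). The share of *Ccnd2* was 3.40 ± 0.870% in DKO and 11 ± 3.85% in control cells, and that of *Ccnd1* was at most 0.0210% in DKO and 0.0744% in control libraries. The shares depend on the division by exon length. Without it, *Ccnd3* made up 91.7 ± 1.99% in DKO and 76.2 ± 7.02% in control cells (SD, n = 4 each). On both scales cyclin D3 transcripts made up most of this family in control pro-B cells.

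The summed cyclin level was 1263 ± 112 CPM per kb in DKO and 436 ± 45.5 CPM per kb in control cells (SD, n = 4 each), while that of the 2 kinases was 391 ± 21.2 CPM per kb in DKO and 345 ± 33.2 CPM per kb in control cells. The ratio of cyclin to kinase transcripts was 3.49, 3.34, 3.28 and 2.81 in DKO libraries 1 to 4, against 1.18, 1.41, 1.19 and 1.28 in control libraries 1 to 4. The groups were apart, and the mean ratio was 2.56-fold as high in DKO cells. *Cdk4* made up 96.4 ± 0.379% of the kinase level in DKO and 96.1 ± 1.29% in control cells, and the 2 groups overlapped. These ratios, like the shares, are scores over the 5 genes and carry no test. As *Ccnd3* makes up most of the cyclin sum, they largely restate its rise and are no separate result. They describe transcripts and not protein.

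**Figure D4:**
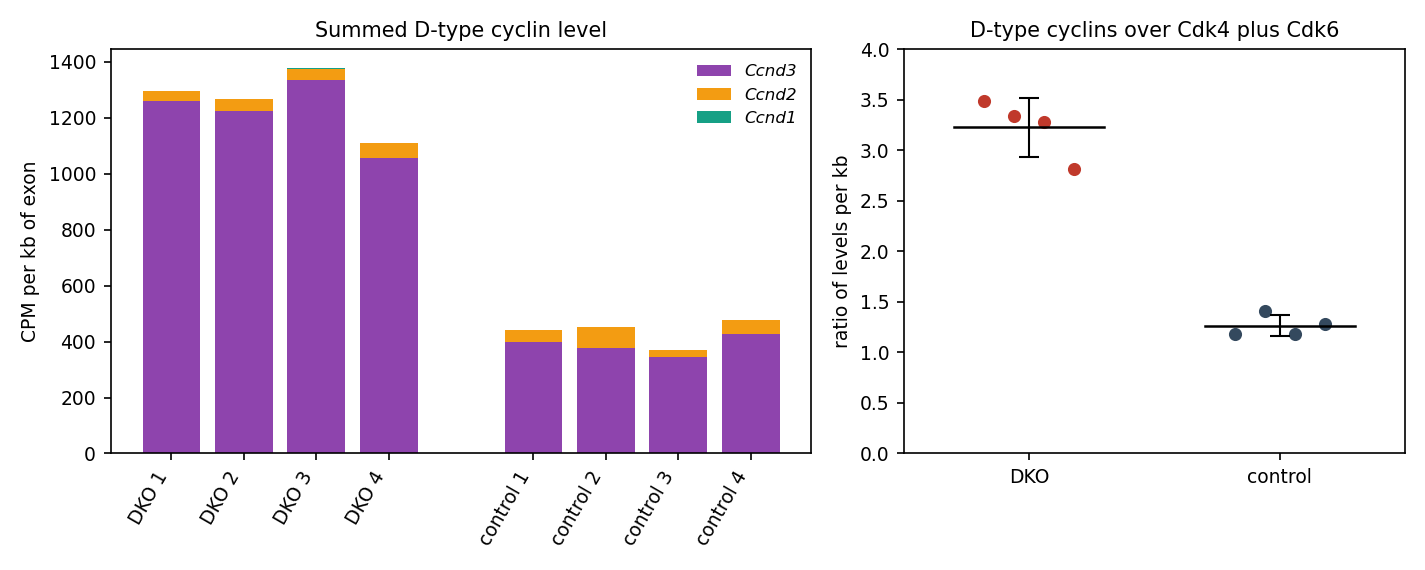
Left, the summed level of the D-type cyclins in each library in CPM per kb of exon, stacked by gene; *Ccnd1* is too low to be seen as more than a line. Right, the ratio of the summed cyclin level to the summed level of *Cdk4* and *Cdk6*, with points for libraries, horizontal bars for the mean and error bars for the SD of 4 mice. The ratio is 2.81 to 3.49 in DKO and 1.18 to 1.41 in control libraries.

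Genes around the cyclin D kinases were taken as well, including upstream signals and other cyclins and kinases. They were read from 5 lists of 78 genes in all, of which 74 could be tested. Of these, 8 were higher and 3 lower in DKO cells, which is 14.9% against 4.58% of all genes tested, and no set test was made. Their median log2 fold change was 0.07, beside -0.01 over all genes. The lists were chosen with earlier results of these data known, so the share of 14.9% is not independent of those results. Of the 11 genes that passed, 4 kept the call in every alternative fit. 3 of the 11 genes (*Ccne1*, *Cdc25a* and *Il7r*) belong to the putative targets that the study chose on these mice.

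Among the inhibitors and substrates of the kinase, 2 of 8 tested genes were higher, none was lower, and the median log2 fold change was 0.26. *Cdkn2c*, which encodes the inhibitor p18 of Cdk4 and Cdk6, had 141 to 165 CPM in DKO libraries, against 72.3 to 91.8 CPM in control libraries (log2 fold change 0.90, standard error 0.10, adjusted p = 0.0012 from edgeR). *Cdkn1a*, which encodes the inhibitor p21, had 215 to 269 CPM in DKO libraries, against 109 to 188 CPM in control libraries (log2 fold change 0.77, adjusted p = 0.0296 from edgeR). Both genes that passed encode inhibitors, but other tested inhibitor genes did not pass. *Cdkn2d*, *Cdkn1b* and *Cdkn1c* had log2 fold changes of 0.03, -0.15 and 0.15 (adjusted p = 0.925, 0.543 and 0.886 from edgeR). The call of *Cdkn1a* was lost when any 1 DKO mouse or control mouse 2 or 3 was left out (adjusted p = 0.0530 to 0.0976 from edgeR), and in the libraries with *Xist* above 10 CPM (0.0991). Of the substrates, *Rbl1*, which encodes p107, had a log2 fold change of 0.52 and *Rbl2*, which encodes p130, of 0.36, and neither passed (adjusted p = 0.0598 and 0.168 from edgeR). *Rbl1* passed without DKO mouse 4 (adjusted p = 0.0161 from edgeR), with the likelihood ratio test (0.0194), with DESeq2 (0.0110), with *Xist* as a covariate (0.0227 from edgeR) and in the libraries with *Xist* above 10 CPM (log2 fold change 0.75, adjusted p = 0.0103 from edgeR). *Rb1* itself was at 29.1 ± 3.8 CPM in DKO and 26.1 ± 4.51 CPM in control cells (SD, n = 4 each). The inhibitor genes *Cdkn2a* and *Cdkn2b* were too low to be tested, at up to 0.375 CPM in DKO and 0.588 CPM in control libraries.

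Among the E2F factors and genes of the G1-to-S output, 4 of 15 tested genes were higher and 1 was lower, with a median log2 fold change of 0.15. *Ccne1* encodes cyclin E1 and had 53.1 to 68.8 CPM in DKO libraries, against 24.3 to 40.5 CPM in control libraries (log2 fold change 0.85, adjusted p = 0.0175 from edgeR). Its kinase partner gene *Cdk2* had 131 to 141 CPM in DKO libraries, against 93.4 to 113 CPM in control libraries (log2 fold change 0.42, adjusted p = 0.0200 from edgeR). The activator gene *E2f1* (log2 fold change 0.64) and the phosphatase gene *Cdc25a* (0.59) were the other 2 that rose, with adjusted p of 0.0139 and 0.0144 from edgeR. *E2f5*, which encodes a factor known as a repressor, fell to 3.79 to 5.96 CPM in DKO libraries, against 11.5 to 15.8 CPM in control libraries (log2 fold change -1.43, standard error 0.18, adjusted p = 0.0020 from edgeR). Also below 0 were *E2f2* (-0.36), *E2f7* (-0.23), *Tfdp2* (-0.31) and *Ccne2* (-0.44), none of which passed. Of the 15 genes, 10 had a log2 fold change above 0. Calls were lost for *E2f1* without DKO mouse 1 (adjusted p = 0.0524), for *Ccne1* without DKO mouse 1 or 2 (0.0566 and 0.0568) and for *Cdk2* without DKO mouse 1, 2 or 3 or control mouse 2 or 4 (0.0512 to 0.0801, all from edgeR). *Cdc25a* lost its call in the libraries with *Xist* above 10 CPM (adjusted p = 0.0642 from edgeR). Leaving out DKO mouse 1 left 1 of the 4 higher genes and leaving out DKO mouse 2 left 2, whereas 3 genes were lower when control mouse 1 was left out.

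Of 14 genes for the assembly, activation and turnover of the complexes, none was higher and 1 was lower, with a median log2 fold change of 0.04. *Skp2*, which encodes a substrate receptor of a ubiquitin ligase, was at 18.9 ± 1.80 CPM in DKO and 28 ± 4.37 CPM in control cells (SD, n = 4 each; log2 fold change -0.57, adjusted p = 0.0382 from edgeR). It passed with all 8 mice and without control mouse 2, and had adjusted p of 0.0527 to 0.115 from edgeR when any other mouse was left out. In the libraries with *Xist* above 10 CPM its log2 fold change was -0.40 and it did not pass (adjusted p = 0.198 from edgeR). *Usp2*, which encodes a deubiquitinase known to act on cyclin D1, had a log2 fold change of 0.89 and an adjusted p of 0.0527 from edgeR, and 0.0267 without DKO mouse 4. It also passed with the likelihood ratio test (adjusted p = 0.0133), with DESeq2 (0.0050), without a filter on low counts (0.0487 from edgeR) and with *Xist* as a covariate (0.0262 from edgeR). *Usp2* too belongs to the putative targets that the study chose on these mice, so its direction is not independent evidence. *Ambra1* and *Ddb1*, which encode parts of the ligase for D-type cyclins, had log2 fold changes of 0.02 and 0.27 and did not pass (adjusted p = 0.967 and 0.161 from edgeR). *Gsk3a*, a kinase gene, did not pass either, with a log2 fold change of 0.29.

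Of 16 genes for signals that act on D-type cyclin genes in B cell progenitors, 2 were higher and 1 was lower, with a median log2 fold change of 0.00. *Il7r*, the interleukin-7 receptor gene, had 427 to 488 CPM in DKO libraries, against 193 to 284 CPM in control libraries (log2 fold change 0.95, adjusted p = 0.0027 from edgeR). *Stat5b*, which encodes a transcription factor downstream of that receptor, had 53.7 to 59.3 CPM in DKO libraries, against 31.8 to 37.9 CPM in control libraries (log2 fold change 0.68, adjusted p = 0.0036 from edgeR). *Stat5a* had a log2 fold change of 0.18 and did not pass (adjusted p = 0.336 from edgeR). *Myc*, the growth regulator gene, was lower, with 30.9 to 52.4 CPM in DKO libraries, against 51.7 to 77.0 CPM in control libraries (log2 fold change -0.75, adjusted p = 0.0407 from edgeR). Its groups overlapped, and it did not pass without DKO mouse 1, 3 or 4 or control mouse 1, 2 or 4 (adjusted p = 0.0572 to 0.118 from edgeR). In the libraries with *Xist* above 10 CPM the log2 fold change of *Myc* was -0.43 and it did not pass (adjusted p = 0.197 from edgeR). *Foxo1*, known to restrain D-type cyclin genes, had a log2 fold change of -0.16 and did not pass (adjusted p = 0.349 from edgeR). *Bcl6*, known to repress *Ccnd2*, had a log2 fold change of -0.08 and did not pass.

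Of 21 tested genes of other cyclins and cyclin-dependent kinases, none passed in either direction with edgeR's quasi-likelihood test, and 4 had an unadjusted p under 0.05. These 4 were *Ccng2* and *Ccnb2*, with log2 fold changes of -0.24 and -0.22, *Cdk12* with -0.52 and *Cdk17* with 0.22. DESeq2, limma-voom and edgeR's likelihood ratio test called none of the 21 either, while *Cdk12* passed without control mouse 1 (adjusted p = 0.0436 from edgeR). The median log2 fold change of the list was 0.02, and the rise of *Ccnd3* was larger than the largest value in it, 0.26.

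**Figure D5:**
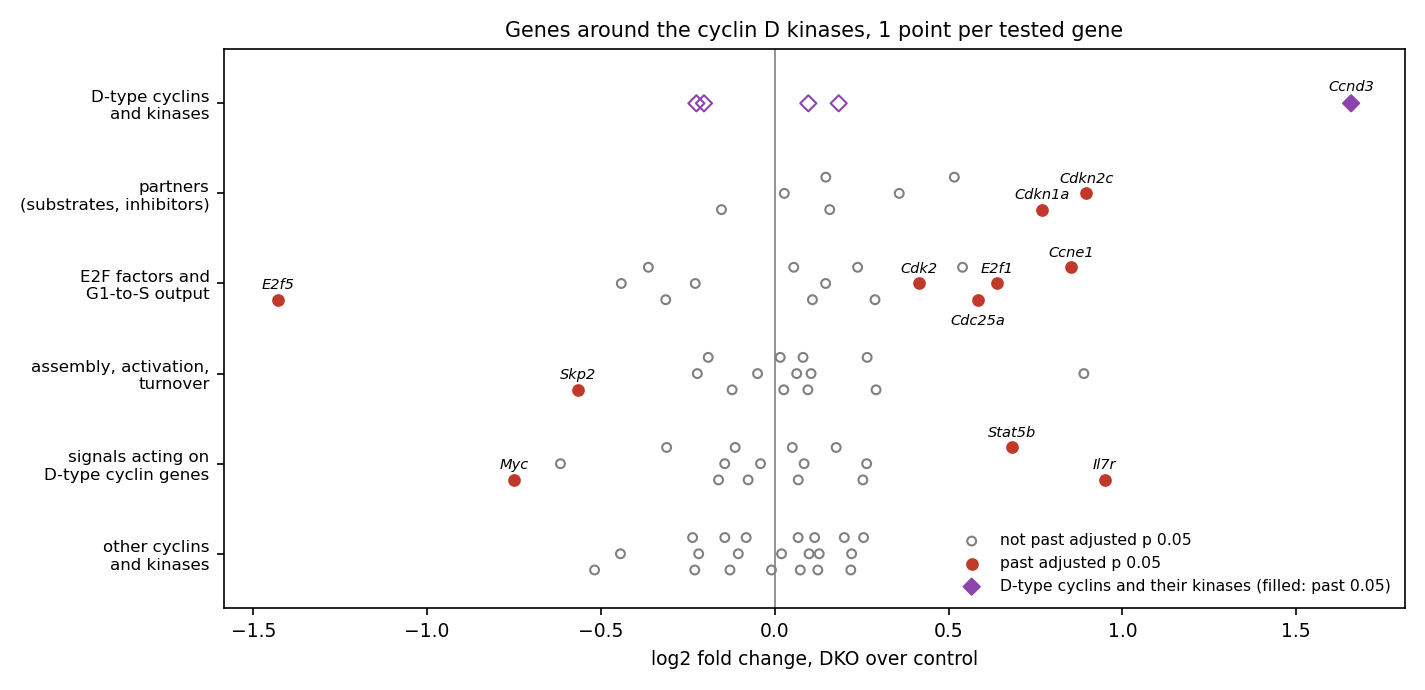
Log2 fold change of DKO over control for each tested gene, with the 5 D-type cyclin and kinase genes (diamonds) above the 5 lists (circles). Filled symbols passed an adjusted p of 0.05 with edgeR. *Ccnd3* has the largest value at 1.66, *E2f5* the lowest at -1.43, and the list of other cyclins and kinases holds no filled symbol.

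The genes with the profile most like that of *Ccnd3* over the 8 libraries were sought among 9329 tested genes with a mean of at least 5 CPM. By Pearson's r of log2 CPM, given here as a description, they were *Arl2*, a small GTPase gene, *Ogfod3*, *Galnt1*, which encodes a glycosyltransferase, *Cdt1*, a replication licensing factor gene, and *Pacsin1*, which encodes a membrane-bending protein, with r of 0.985 to 0.993. All 5 were higher in DKO cells, and r over 2 separate groups mainly reads that difference. According to the paper, *Arl2* had the strongest effect in its reporter assay, which tested genes from the target list chosen on these mice. With the group means taken out, r was 0.94 for *Cdt1*, 0.91 for *Galnt1*, 0.62 for *Ogfod3*, 0.57 for *Arl2* and 0.02 for *Pacsin1*. *Cdt1* was at 72.3 ± 6.45 CPM in DKO and 46.7 ± 2.88 CPM in control cells (SD, n = 4 each; log2 fold change 0.63, adjusted p = 0.0054 from edgeR).

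The other 4 genes had different nearest profiles. For *Ccnd2* they were *Cish*, a feedback inhibitor gene of cytokine receptor signals and a target of STAT5, *Ttll11* and *Edem2*, with r of 0.93, 0.89 and 0.89, and 0.93, 0.91 and 0.89 with the group means taken out. *Cish* was at 20.4 ± 4.20 CPM in DKO and 26.3 ± 11.8 CPM in control cells (SD, n = 4 each) and varied more among control mice, as *Ccnd2* did. For *Cdk4* they were *Clec12a*, *Tomm40* and *Ccl9*, with r of 0.98, 0.97 and 0.97. *Ccl9*, a chemokine gene of myeloid cells, was at 35.5 ± 27.7 CPM in DKO and 6.27 ± 4.55 CPM in control cells (SD, n = 4 each). *Ccl9* passed the test (log2 fold change 2.51, adjusted p = 0.0479 from edgeR). *Clec12a* was at 29.0 CPM in DKO and 13.3 CPM in control cells on average and did not pass (adjusted p = 0.0853 from edgeR). For *Cdk6* they were *Esf1*, *Qpctl* and *Nrde2*, with r of 0.93, 0.92 and 0.92. For *Ccnd1* they were *Mcl1*, *Lmbrd1* and *M6pr*, with r of 0.98, 0.94 and 0.93, which rest on 20 to 52 reads of *Ccnd1* per library. Each of the 5 genes had such close profiles among 9329 genes over 8 libraries, so these values do not set the named genes apart.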

How the data were processed

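Reads were processed by the authors: cDNA was amplified by the SMART-seq protocol and sequenced as paired ends, and single end reads went through Trimmomatic, STAR and featureCounts. Tool versions and the use of strand are not given in the sources. The authors deposited raw counts per gene for all 8 libraries, beside gene positions and exon lengths. The labels name GRCm39, but of 24148 genes found by symbol in GENCODE M21, 99.6% lie where that annotation of GRCm38 has them, so coordinates are those of GRCm38. No other per-sample columns were present (0 columns). All pairs of replicates differed beyond sampling noise.

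Counts were normalized by TMM, filtered with filterByExpr (minimum count 10, minimum total 15) and fitted with genotype as the only term in edgeR 4.0.16 (R 4.3.3), and 12714 genes were tested by the quasi-likelihood test with Benjamini-Hochberg adjustment at 0.05. CPM use TMM library sizes. At 38073065 to 43288133 counts per library the spread between mice limits the precision, except for *Ccnd1*. Alternatives were the likelihood ratio test, DESeq2 1.42.0, limma-voom (limma 3.58.1), other scalings, no filter, a replicate block, *Xist* as a covariate or selection, and leaving out each mouse. An alternative chosen after seeing the data applied the same settings to the listed genes, *Bysl* and *Oraov1*. The code was tested on simulated data.

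The 5 genes and the lists were chosen with earlier results of these data known. Named genes are the 5 genes; those most like them (5 for *Ccnd3*, 3 for each other) by Pearson's r of log2 CPM with a prior count of 2; and in each list those past 0.05 and, where fewer than 4 pass, the smallest p up to 4. 1 gene that this rule takes is not reported here. *Rb1*, *Cdkn2a*, *Cdkn2b*, *Cdkn2d*, *Cdkn1b*, *Cdkn1c*, *Ambra1*, *Stat5a*, *Foxo1* and *Bcl6* were added for their roles after their values were seen, as was *Kit* of the marker lists. *E2f2*, *E2f7*, *Tfdp2* and *Ccne2* were added because their log2 fold changes were below 0. The lists of later B, neutrophil, T and NK, erythroid, and stromal markers are given under the other observations.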

Additional observations from a re-analysis of the deposited data

Results flagged for a closer look

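In 14 groups of 4 libraries (the 5 genes, the *Ccnd3* share and the ratio of cyclins to kinases, in DKO and in control mice), a single library stood apart by Dixon's criterion in 2, both for *Ccnd1*. The gap of DKO mouse 2 to the next library took up 0.855 of the range among DKO libraries, and that of control mouse 2 took up 0.839 among control libraries; both exceed the 95% critical value for 4 samples. DKO mouse 2 had 20 reads of *Ccnd1* and control mouse 2 had 52. Chance flags about 1 in 20 such groups.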

How the results depend on the processing

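*Ccnd3* passed in all 18 alternative fits, with log2 fold changes of 1.63 to 1.70 under the 10 other settings and of 1.61 to 1.72 with 1 mouse left out. The other 4 genes passed in none. With 1 mouse left out, the log2 fold change ranged over -0.41 to 0.0633 for *Ccnd2*, -0.31 to -0.01 for *Ccnd1*, 0.13 to 0.23 for *Cdk4* and -0.0489 to 0.23 for *Cdk6*. *Cdk6* also turned negative (-0.11) in the libraries with *Xist* above 10 CPM. The cause was not tested. The numbers of genes higher and lower in DKO cells, 337 and 245, became 519 and 461 with the likelihood ratio test, 674 and 568 with DESeq2, 559 and 506 with *Xist* as a covariate, and 142 to 493 and 84 to 398 with 1 mouse left out. Without division by length, the share of *Ccnd3* differed by 15.5 instead of 7.64 percentage points (91.7 ± 1.99% in DKO and 76.2 ± 7.02% in control cells), and the ratio of cyclins to kinases was 2.31-fold instead of 2.56-fold as high in DKO cells, since *Ccnd2* and *Cdk6* are long. With 1 mouse left out these were 5.86 to 8.94 points and 2.49-fold to 2.67-fold. The seed matches in the 5 genes numbered 11 in the longest and 3 in the shortest 3′ UTRs, which are shorter by construction.

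With the replicate number of the labels as a block, *Ccnd3* had a log2 fold change of 1.66 and an adjusted p of 0.0026 from edgeR, and 94 genes were higher and 54 lower. Deviations of same-numbered DKO and control mice correlated at -0.20, 0.05, -0.18 and -0.03, and no DKO mouse correlated best with its own number. These correlations give no sign of pairing by number but cannot exclude it, as paired mice need not have alike deviations. Of the 11 listed genes that passed, 6 lost the call under the block (*Cdkn1a*, *Skp2* and all 4 higher genes of the E2F and G1-to-S list, *E2f1*, *Ccne1*, *Cdk2* and *Cdc25a*), *Cdkn1a*, *Skp2*, *Myc* and *Cdc25a* lost it in the libraries with *Xist* above 10 CPM, 6 lost it in some fit with 1 mouse left out, and *Cdkn2c*, *E2f5*, *Il7r* and *Stat5b* kept it in every alternative. Depth limits only *Ccnd1*, at 20 to 52 reads.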

Other observations

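Of the other marker lists, none of the 9 neutrophil genes passed the test, and their summed level was 311 to 2231 CPM in DKO and 422 to 2819 CPM in control libraries. Of 7 later B cell genes 1 was lower, with a summed level of 44.4 to 65.4 CPM in DKO and 47.9 to 72.2 CPM in control libraries. The 4 tested T and NK cell genes did not pass (summed level 22.6 to 66.3 CPM in DKO and 14.5 to 77.7 CPM in control libraries). *Cd3e*, *Cd3g*, *Ncr1* and *Gzma* were below 1 CPM in every library. Of the erythroid genes, 4 hemoglobin genes are listed with no count in any library, and the 3 tested genes did not pass (summed level 14.8 to 38.6 CPM in DKO and 32.0 to 112 CPM in control libraries). Of 3 tested stromal and endothelial genes 1 was lower, and *Lepr*, *Col1a1*, *Col1a2*, *Col3a1* and *Cdh5* were below 1 CPM in every library, with a summed level of the list of 51.6 to 62.4 CPM in DKO and 42.0 to 67.7 CPM in control libraries.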
